A study of Homo sapiens with 6 samples.

Results

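The transcripts described here are those of the IGF-binding proteins IGFBP1 to IGFBP7 and of the receptors IGF1R, IGF2R and INSR, taken by symbol from a table of 15761 genes, in which all 10 were found. They were chosen with the comparison of exosome-treated and control cells in view, in which IGFBP5, IGFBP6 and IGFBP3 had stood out. Their differences between the groups are therefore given as a description, without p-values. Each of 3 libraries with exosomes came from SK-MES-1 cells, a human lung squamous carcinoma line of wild-type genotype as labelled, kept 72 h in medium with exosomes of lung fibroblasts from idiopathic pulmonary fibrosis (IPF, a scarring lung disease; labelled DHLF-exo) at 20 µg/ml. Each of 3 control libraries came from the same line kept in medium with no exosomes (0 µg/ml). No group received vesicles of another source, a single cell line was used, and nothing in the labels says that the libraries of a group come from separate cultures, so the spread between them may be technical.

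Insulin-like growth factors are secreted proteins that signal through IGF1R, a receptor tyrosine kinase closely related to the insulin receptor INSR. IGF2R, which is also the cation-independent mannose 6-phosphate receptor, takes IGF2 up for degradation in lysosomes and has no kinase. The binding proteins hold IGFs outside the cell, which can restrain or prolong signalling, and several of them also act without IGFs. In squamous lung tumours IGF1R is a well-known growth receptor, and IGFBP3 is a well-studied target of p53.

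Library totals were 13038688 to 13334508 counts with exosomes and 11346639 to 12924251 in control, and levels are given as CPM (counts scaled to a common library total) or, per length, as FPKM. The libraries of a group differed by more than sampling noise (chi-square per gene 2.29 to 15.6), with control library 3 and exosome library 3 farthest from their groups. The epithelial keratins KRT8 and KRT18 stood at 424 and 400 FPKM with exosomes and at 511 and 496 FPKM in control, whereas KRT5, KRT6A, KRT6B and KRT14, keratins of squamous and basal cells, had at most 6 reads in any library of either group. Of 10 fibroblast markers in the table, COL5A1 stood at 58.9 FPKM with exosomes and 51.6 FPKM in control and COL6A1 at 31.4 FPKM with exosomes and 25.8 FPKM in control, while PDGFRA, THY1, COL3A1 and FAP had at most 5 reads in any library. The summed level of the list was 630 to 759 CPM with exosomes and 577 to 618 CPM in control; its part in the results below was not tested. Of the fibroblast list, COL6A2 rose (log2 fold change 0.41, edgeR adjusted p = 0.00125), COL6A1 rose (0.20, edgeR adjusted p = 0.0488) and COL6A3 fell (-1.30, edgeR adjusted p = 0.000813); with the correction for GC content and length described further on, the first 2 had values of -0.081 and -0.17. COL6A1 also missed the threshold in every fit without a library except that without exosome library 3. COL6A3 rests on 15 to 22 reads with exosomes and 35 to 51 reads in control. Of 11 tested squamous and epithelial markers, 7 fell and 1 rose at an adjusted p under 0.05, where 26.1% of all tested genes fell and 25.6% rose. Among them were CDH1 (-1.39, edgeR adjusted p = 7.90e-10) and KRT17 (-1.71, edgeR adjusted p = 9.55e-05), with DSP at -0.51 (edgeR adjusted p = 2.58e-05) and SFN at 0.94 (edgeR adjusted p = 1.45e-05). KRT17 was low in both groups, with 13 to 16 reads with exosomes and 37 to 49 reads in control. In the bulk RNA of these libraries, fewer cells carrying a transcript and less of it per cell cannot be told apart.

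For orientation, the 100 bases before the RefSeq start of 4 binding-protein genes are shown (GRCh38.p14, gene strand, 5′ to 3′), because these binding proteins differ from each other in how they stand with exosomes. Capitals mark TATA-like elements, spelled TATAAA in IGFBP4, with the variants TATATA in IGFBP3 and TATTTAA in IGFBP5, and the GC box GGGCGG, which reads CCGCCC when it lies on the other strand.
IGFBP5, chr2:216695550-216695649, minus strand: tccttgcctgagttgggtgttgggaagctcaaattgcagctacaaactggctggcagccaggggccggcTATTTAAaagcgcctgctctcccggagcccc
IGFBP6, chr12:53097567-53097666, plus strand: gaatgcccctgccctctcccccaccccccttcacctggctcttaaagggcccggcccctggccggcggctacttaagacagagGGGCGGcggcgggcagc
IGFBP3, chr7:45921273-45921372, minus strand: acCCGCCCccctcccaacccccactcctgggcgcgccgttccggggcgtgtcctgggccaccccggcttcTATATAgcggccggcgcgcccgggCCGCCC
IGFBP4, chr17:40443350-40443449, plus strand: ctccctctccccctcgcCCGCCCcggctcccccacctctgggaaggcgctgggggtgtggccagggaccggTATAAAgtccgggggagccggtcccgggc
A TATA-like element began 31 bases before the start in IGFBP5 (TATTTAA), 30 before it in IGFBP3 (TATATA) and 29 before it in IGFBP4 (TATAAA). On the gene strand of the last 50 bases before the start, 0.433% of 35116 RefSeq starts held the TATTTAA spelling, 1.18% the TATATA spelling and 2.63% the TATAAA spelling. On both strands of 250 bases the shares were 4.17%, 3.73% and 10.7%. Since the spellings were chosen after these windows had been read, the shares cannot show that the elements are unusual. None of these spellings was found in the 250 bases before the starts of IGFBP6, IGFBP2 (3 annotated starts) or the receptors. The IGFBP6 window does hold the letters tacttaa, close in spelling and in place to the TATTTAA of IGFBP5. A search for exact spellings therefore does not show that IGFBP6 lacks such an element. The GC box, searched on both strands of the 250 bases, was found in 42.6% of all starts. It was present once each before IGFBP6, IGFBP4 and 2 of the 3 starts of IGFBP2, 2 times each before IGFBP3 and IGF1R, 4 times before INSR and 6 times before IGF2R, but not before IGFBP5. The AP-1 letters TGACTCA (4.2% of starts, both strands) and the SMAD-type letters CAGACA (13.6%, both strands) were in none of these members' windows. A match is a description of the sequence and does not show that a factor binds there. A link between these sequences and the differences between the groups was not tested. GENCODE 29 annotates outer starts of IGFBP6 and IGFBP3 upstream of the RefSeq starts used here.

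The per-length levels (FPKM, the authors' counts divided by library total and gene length) differed widely among the members. IGFBP6 was the highest in both groups, at 180 ± 30.2 FPKM with exosomes and 65.9 ± 4.50 FPKM in control (mean ± SD, n = 3 in each group, here and below). With exosomes the order continued with IGFBP3, IGFBP2, IGFBP4, IGF2R, IGF1R, INSR, IGFBP5, IGFBP7 and IGFBP1. In control it continued with IGFBP4, IGFBP2, IGFBP3, IGF2R, INSR, IGF1R, IGFBP5, IGFBP7 and IGFBP1. The place of IGFBP2 depends on the length used. The authors' FPKM imply 1568 bases for it, while its longest annotated transcript has 4414 bases, which would give a lower level. The library ranges of IGFBP3 and IGFBP2, of IGFBP2 and IGFBP4, and of IGFBP7 and IGFBP1 overlapped with exosomes. Within each exosome library, however, IGFBP2 lay above IGFBP4. In control the ranges of IGFBP4 and IGFBP2, IGFBP2 and IGFBP3, INSR and IGF1R, and IGFBP7 and IGFBP1 overlapped. Within each control library IGFBP4 lay above IGFBP2. Among genes with a value above 0, IGFBP6 stood at a mean percentile of 98.7 with exosomes and 95.4 in control, and IGFBP5 at 22.1 with exosomes and 36.9 in control.

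**Figure D1:**
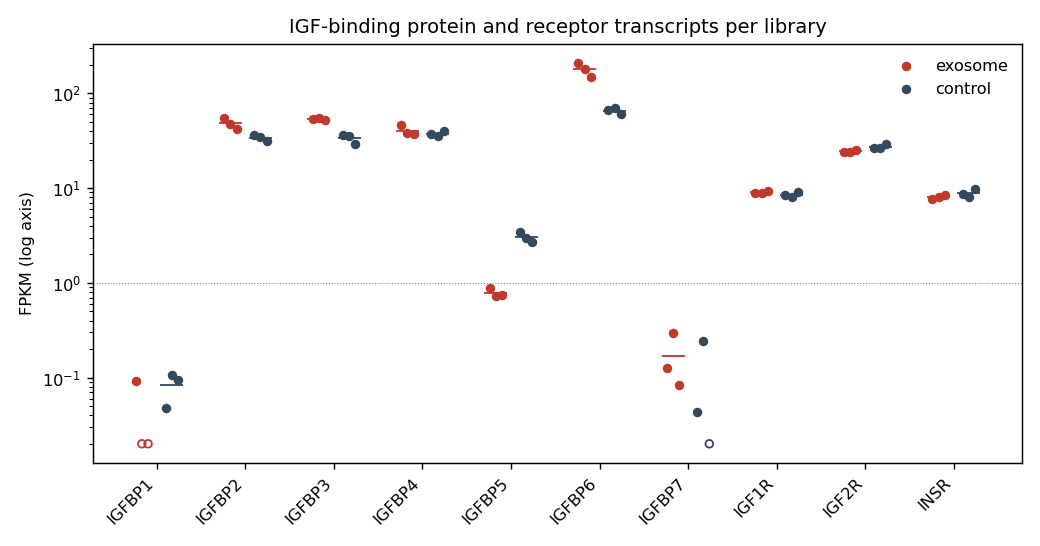
FPKM (log axis) of the 10 transcripts in each library, exosome libraries (red) left of control libraries (dark blue); short lines are group means, drawn where no library is at 0, and open circles at the bottom are libraries with 0 reads. IGFBP6 is highest in both groups, and the exosome points of IGFBP5 lie below 1 FPKM (dotted line) while its control points lie above it.

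IGFBP5 was the member with the largest difference between the groups. Its protein binds IGFs, extracellular matrix and heparin-like glycans, and its gene lies on chromosome 2 from 216672105 to 216695525 on the minus strand (GRCh38, ENSG00000115461). It had 0.880, 0.728 and 0.736 FPKM with exosomes, against 3.48, 2.96 and 2.73 FPKM in control. All 3 exosome libraries lay below all 3 control libraries, with no overlap. These levels rest on 72, 59 and 61 reads with exosomes and 275, 209 and 219 reads in control. The fitted log2 fold change (exosome over control, edgeR) was -2.05 ± 0.16 (SE), which is 4.14-fold lower with exosomes. An annotated antisense gene, AC007563.2, overlaps IGFBP5, and the use of strand in counting is not stated by the sources at hand.

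IGFBP2 is the neighbour of IGFBP5 on chromosome 2 (216632828 to 216664436, plus strand, ENSG00000115457), and the 2 genes point towards each other with 7668 bases between them. IGFBP2 binds IGF2 with preference and carries an RGD sequence that integrins can recognise. It had 54.6, 48.1 and 42.1 FPKM with exosomes, against 36.0, 35.1 and 31.1 FPKM in control. The groups did not overlap, and exosome library 3 was the nearest to the control libraries. The log2 fold change was 0.42 ± 0.10, opposite in sign to that of IGFBP5.

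IGFBP6 prefers IGF2 over IGF1 more strongly than the other binding proteins, and its gene lies on chromosome 12 from 53097436 to 53102345 (plus strand, ENSG00000167779). It had 209, 182 and 149 FPKM with exosomes, against 66.7, 69.9 and 61.0 FPKM in control. Every exosome library was above every control library, and the exosome libraries were the more spread, with the highest 1.41 times the lowest. The log2 fold change was 1.37 ± 0.10, or 2.58-fold higher with exosomes. With the trend of fold changes on GC content and length removed, as set out further on, it was 0.76 ± 0.063, or 1.69-fold. The levels with that trend removed were 155, 141.5 and 138.7 FPKM with exosomes, against 75.68, 80.25 and 87.63 FPKM in control. By highest over lowest, the exosome libraries were then no longer the more spread.

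IGFBP3 encodes the main carrier of IGFs in blood and lies on chromosome 7 from 45912245 to 45921874 (minus strand, ENSG00000146674). It had 53.8, 54.6 and 52.8 FPKM with exosomes, against 36.0, 35.4 and 29.4 FPKM in control. The groups did not overlap, and among the tested members IGFBP3 varied least between exosome libraries (highest over lowest 1.03). Its log2 fold change was 0.60 ± 0.086, or 1.51-fold higher with exosomes. The neighbour of IGFBP3 across 18576 bases, IGFBP1, is chiefly a product of liver and decidua. IGFBP1 had 2, 0 and 0 reads with exosomes and 1, 2 and 2 reads in control, and no fold is given. A count of 0 allows up to 0.230 CPM in exosome library 2, at 3 reads, counting error only.

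IGFBP4, which restrains IGF action until the protease PAPPA cleaves it, lies on chromosome 17 from 40443461 to 40457731 (plus strand, ENSG00000141753). It had 46.3, 37.8 and 37.7 FPKM with exosomes, against 37.1, 35.6 and 40.4 FPKM in control. The groups overlapped, and the log2 fold change was 0.024 ± 0.090. With the GC and length trend removed it was -0.46 ± 0.085, with no overlap, as set out further on. IGFBP7, a low-affinity family member known from endothelium and fibroblasts, had 3, 7 and 2 reads with exosomes and 1, 5 and 0 reads in control. At these counts IGFBP7 could not be compared, and 3 genes overlap it on the other strand, among them the RNA polymerase subunit gene POLR2B.

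The receptors differed less than most of the binding proteins. IGF1R (chromosome 15, 98648539 to 98964530, plus strand, ENSG00000140443) had 8.93, 8.95 and 9.41 FPKM with exosomes, against 8.41, 8.16 and 9.13 FPKM in control. The groups overlapped, and the log2 fold change was 0.0049 ± 0.078. IGF2R (chromosome 6, 159969099 to 160113507, plus strand, ENSG00000197081) had 24.3, 24.0 and 25.2 FPKM with exosomes, against 26.2, 26.8 and 28.9 FPKM in control. The exosome libraries all lay below the control libraries, and the log2 fold change was -0.24 ± 0.074. INSR (chromosome 19, 7112255 to 7294034, minus strand, ENSG00000171105) had 7.72, 8.15 and 8.38 FPKM with exosomes, against 8.63, 8.07 and 9.81 FPKM in control. Its FPKM values overlapped between the groups, its levels scaled by edgeR's TMM factors did not, and its log2 fold change was -0.21 ± 0.088. The ratio of INSR to IGF1R FPKM was 0.864, 0.911 and 0.890 with exosomes, against 1.03, 0.989 and 1.07 in control. The antisense transcript AIRN overlaps IGF2R in the annotation.

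Across the binding proteins, the summed level was 324 ± 41.4 FPKM with exosomes and 174 ± 8.46 FPKM in control. FPKM are scaled by library totals, without the TMM factors of the fitted fold changes. With library totals alone, the median log2 fold change of the tested genes was 0.078, against -0.004 with TMM. IGFBP6 made up 57.4%, 56.3% and 52.8% of this sum with exosomes, against 37.2%, 38.99% and 37.0% in control. Among the others, shares lower with exosomes were 14.9 ± 0.044% against 19.5 ± 0.61% for IGFBP2, 12.6 ± 0.84% against 21.7 ± 2.50% for IGFBP4 and 0.242 ± 0.018% against 1.75 ± 0.16% for IGFBP5, in each case exosome against control libraries. IGFBP3, at 16.8 ± 1.98% with exosomes and 19.2 ± 1.21% in control, overlapped between the groups. The IGFBP6 level was 230 ± 24.9 times that of IGFBP5 with exosomes and 21.7 ± 2.27 times in control. The share of IGFBP2 was lower with exosomes although its level, given above, was higher.

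**Figure D2:**
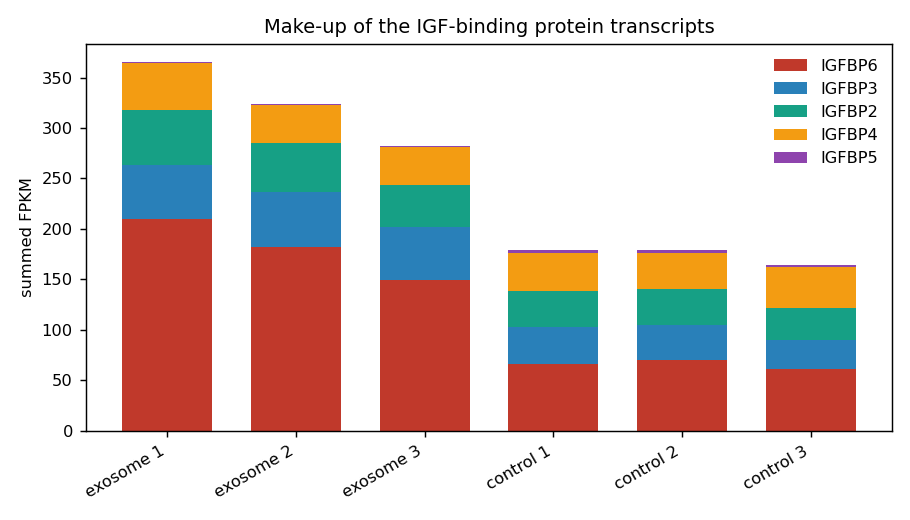
Stacked FPKM of 5 IGF-binding proteins in each library, exosome libraries left of control libraries (IGFBP1 and IGFBP7, at most 0.296 FPKM in any library, are left out). The IGFBP6 segment takes 52.8% to 57.4% of the summed FPKM with exosomes and 37.0% to 38.99% in control.

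Of the 10 members, 8 passed the filter on low counts (IGFBP1 and IGFBP7 did not). In edgeR's fit over all 12449 tested genes, 3 of the 8 were higher (IGFBP2, IGFBP3 and IGFBP6) and 3 lower (IGFBP5, IGF2R and INSR) at an adjusted p under 0.05. The same threshold took 51.7% of all tested genes, 25.6% higher and 26.1% lower, and since the members were chosen on this contrast nothing is read from their count. The groups did not overlap on the scaled log2 CPM in 6 of the 8 members and in 59.3% of all tested genes. The median log2 fold change was 0.015 over the 8 members and -0.004 over all tested genes. Leaving out any of 4 libraries (control 1, control 3, exosome 1 or exosome 2) took INSR below the threshold (log2 fold change -0.12 to -0.26 over the 6 fits that leave out 1 library), and IGF2R not without exosome library 2 (-0.19 to -0.27). With scaling by library totals alone neither IGF2R nor INSR passed, and INSR did not pass with RLE factors, without the filter, in DESeq2 or in limma-voom.

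Fold changes in these libraries followed GC content and transcript length, from a median of -0.39 in the decile with the lowest GC content upwards, and the members lie at different places on that trend. The part of this trend in the members' differences was not tested beyond the correction given here. The correction takes no account of group, so it would also remove an effect of exosomes that follows GC content or length. Such an effect and a technical trend cannot be told apart here. The IGFBP6 transcript (64.1% GC, 1177 bases) falls in the decile of tested genes with the highest GC content (61.8% to 73.9%), whose median log2 fold change was 0.49, and in the shortest decile, whose median was 0.34. IGFBP4 (62.5% GC) falls in the same decile by GC content. The receptor transcripts (8954 to 14044 bases) fall in the longest decile, whose median was -0.31. With the trend on GC content and length removed within each library (values called corrected below), the log2 fold change of IGFBP6 was 0.76 ± 0.063, that of IGFBP3 0.48 ± 0.068 and that of IGFBP2 0.21 ± 0.078. The corrected value of IGFBP2 rests on its longest transcript (4414 bases, in a decile with a median of -0.068). The 1568 bases that the authors' FPKM imply would fall in the shortest decile, and a correction with that length was not run. IGFBP5 stayed at -2.04 ± 0.15. IGFBP4 was lower with exosomes after correction, at -0.46 ± 0.085, and its corrected levels were 36.4, 31.4 and 35.2 FPKM with exosomes, against 41.3, 40.8 and 52.0 FPKM in control, with no overlap. IGF1R was higher after correction (0.22 ± 0.061), while IGF2R (0.067 ± 0.054) and INSR (-0.063 ± 0.070) were no longer past the threshold. The corrected fit placed 4 members higher, IGFBP2 with that limit among them, and 2 lower, where 35.4% of all tested genes passed (18.2% higher and 17.3% lower). Corrected, the IGFBP6 share of the summed binding proteins was 52.4 ± 0.63% with exosomes and 40.4 ± 1.82% in control, and the sum was 277 ± 13.2 FPKM with exosomes and 201 ± 6.00 FPKM in control.

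**Figure D3:**
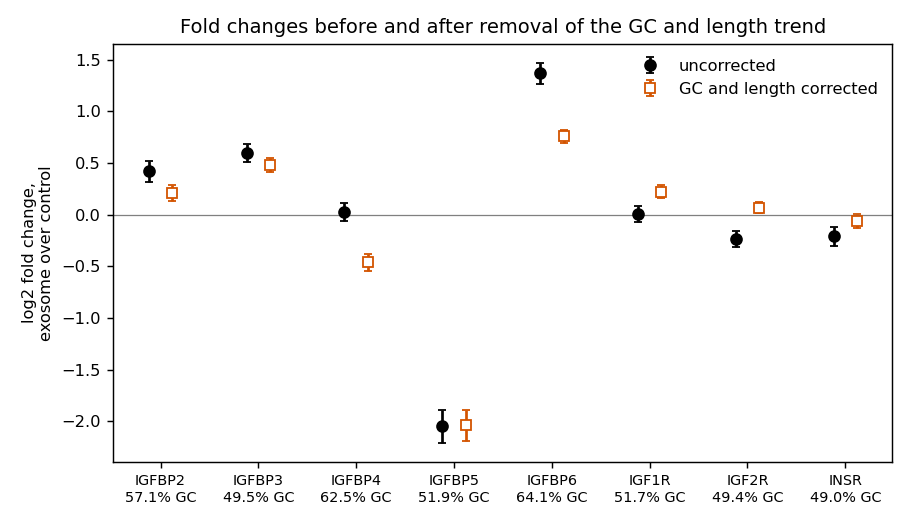
Log2 fold change (exosome over control, points with ± 1 SE derived from edgeR's F statistic) of the 8 tested members before (filled circles) and after (open squares) removal of the GC and length trend, with each transcript's GC content under its name. IGFBP5 stays at -2.04, IGFBP6 shifts to 0.76 and IGFBP4 to -0.46.

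The genes whose pattern over the 6 libraries lay nearest to IGFBP6, by the root mean square difference of the centred log2 CPM among 12129 genes, were PSMB10 (0.048), JUNB (0.067) and C1orf35 (0.074), with JUNB at 135 ± 21.3 FPKM with exosomes and 48.2 ± 0.68 FPKM in control. Like IGFBP6, these 3 are rich in GC (60.1%, 64.9% and 58.7%). Their log2 fold changes were 1.46, 1.40 and 1.46, and corrected 0.94, 0.81 and 1.17. Among the nearest to IGFBP5 were LBH (0.11) and PDGFB (0.16), with LBH at 2.16 ± 0.20 FPKM with exosomes and 8.42 ± 1.05 FPKM in control. The log2 fold changes of LBH and PDGFB were -2.04 and -1.88, and corrected -2.24 and -2.21. Since over 6 libraries of 2 groups any gene with a like fold change lies near, these names describe a shared pattern only.

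Genes around the binding proteins and receptors were read from 8 lists, 122 genes in the table apart from the members and 101 of them tested. Of these, 27 rose and 36 fell (corrected, 22 and 33) in edgeR's quasi-likelihood test with Benjamini-Hochberg adjustment over all genes. Their median log2 fold change was -0.024, beside -0.004 over all tested genes. Over all tested genes, 25.6% rose and 26.1% fell (corrected, 18.2% and 17.3%). These shares are the background of this count and of each list count below, which are descriptions without a test of the list. The IGF ligands themselves were barely transcribed in these cells: IGF2 had 4, 3 and 0 reads with exosomes and 8, 8 and 6 reads in control, and IGF1 had at most 4 reads in any library. INSL6 and RLN2, the other genes of the insulin and relaxin family in the list, also had at most 4 reads.

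Among 16 tested proteases of IGF-binding proteins and their regulators, 3 rose and 3 fell (median log2 fold change 0.043). C1R and C1S, the serine proteases of the first complement component, of which C1s is known to cleave IGFBP5, both rose. C1S had 7.69 ± 0.29 FPKM with exosomes and 2.34 ± 0.28 FPKM in control (log2 fold change 1.64 ± 0.13, edgeR adjusted p = 3.64e-09; corrected 1.62). C1R had 33.4 ± 1.91 FPKM with exosomes and 10.97 ± 0.31 FPKM in control (1.53 ± 0.088, edgeR adjusted p = 2.69e-11; corrected 1.30). In both genes the groups did not overlap. The rise of CTSD, cathepsin D (0.46, edgeR adjusted p = 0.00251), was not seen after correction (-0.052, adjusted p = 0.560), and the fall of ADAM9 (-0.36, edgeR adjusted p = 0.000369) no longer passed (-0.091, adjusted p = 0.205). HTRA1, a secreted protease with an IGFBP-type domain, fell (-0.34, edgeR adjusted p = 0.00124; corrected -0.73). PAPPA, which cleaves IGFBP4 and IGFBP5, stood at 0.581 FPKM with exosomes and 0.480 FPKM in control and did not pass (0.19 ± 0.22, edgeR adjusted p = 0.503), and its inhibitors STC1 (adjusted p = 0.191) and STC2 (adjusted p = 0.221) did not pass either.

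Of 7 tested genes that share the N-terminal IGFBP domain with the family, 5 fell and 1 rose (median log2 fold change -0.46; corrected 6 and 1, median -0.58). WISP2, also called CCN5, was the member that rose, with 262 ± 25.4 FPKM with exosomes and 83.3 ± 10.6 FPKM in control (1.57 ± 0.093, edgeR adjusted p = 7.58e-11; corrected 1.33). Its level lay above that of IGFBP6 in both groups. The related matricellular proteins CTGF (-1.51, edgeR adjusted p = 3.66e-10; corrected -1.70) and CYR61 (-0.90, edgeR adjusted p = 2.15e-06; corrected -1.06) fell. The transmembrane protein CRIM1 fell as well, by 0.72 on the log2 scale (edgeR adjusted p = 3.10e-07; corrected -0.58), and so did NOV (-0.46, edgeR adjusted p = 0.0309; corrected -0.47). The call of NOV was lost when control 2 or 3 or exosome 1 or 2 was left out (-0.28 without control 3). It was also lost in DESeq2 (DESeq2 adjusted p = 0.0509) and with scaling by library totals only (edgeR adjusted p = 0.0771). CYR61 had 19.6 ± 3.77 FPKM with exosomes and 34.5 ± 2.02 FPKM in control. HTRA1, given above, is in this list too.

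Of 13 tested partners of the binding proteins, 7 fell and 2 rose (corrected, 6 and 1), with a median log2 fold change of -0.21. Without any 1 library other than exosome 2, only 1 of them rose. The matrix proteins THBS1 (-1.06, edgeR adjusted p = 2.86e-09; corrected -0.83), FN1 (-0.74, edgeR adjusted p = 1.15e-07; corrected -0.39) and VTN (-0.83, edgeR adjusted p = 0.00102; corrected -1.18) fell, as did the integrin chain ITGAV (-0.82, edgeR adjusted p = 1.15e-07; corrected -0.42). VTN, vitronectin, to which IGFBP5 binds, had 2.44 FPKM with exosomes and 4.09 FPKM in control. The fall of ITGB1 (-0.41, edgeR adjusted p = 0.000426) no longer passed after correction (-0.16, adjusted p = 0.0905). TMEM219, described as a cell-surface receptor of IGFBP3, did not pass uncorrected (0.042, edgeR adjusted p = 0.748) and was lower after correction (-0.32, adjusted p = 0.00633).

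Downstream of the receptors, 8 of 24 tested adaptors and regulators rose and 9 fell (corrected, 6 and 9), with a median log2 fold change of -0.044. The adaptor IRS1 rose to 28.4 FPKM with exosomes, against 18.5 FPKM in control (0.53, edgeR adjusted p = 7.28e-06; corrected 0.68), while IRS2 did not pass (-0.087, edgeR adjusted p = 0.458) and was lower after correction (-0.21, adjusted p = 0.0420). SOCS3, an inhibitor of cytokine receptors that also binds the insulin receptor, rose to 24.1 ± 1.66 FPKM with exosomes, against 7.32 ± 0.16 FPKM in control (1.64 ± 0.098, edgeR adjusted p = 4.09e-11; corrected 1.25). GIGYF1, a partner of the adaptor GRB10, rose (1.05, edgeR adjusted p = 2.58e-08; corrected 0.82), and GRB10 itself fell (-0.43, edgeR adjusted p = 5.37e-05; corrected -0.43). ENPP1, a membrane protein known to restrain the insulin receptor, fell (-1.01, edgeR adjusted p = 4.23e-06; corrected -0.69). SOS1, an exchange factor for RAS, fell too (-0.62, edgeR adjusted p = 2.97e-06; corrected -0.17).

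**Figure D4:**
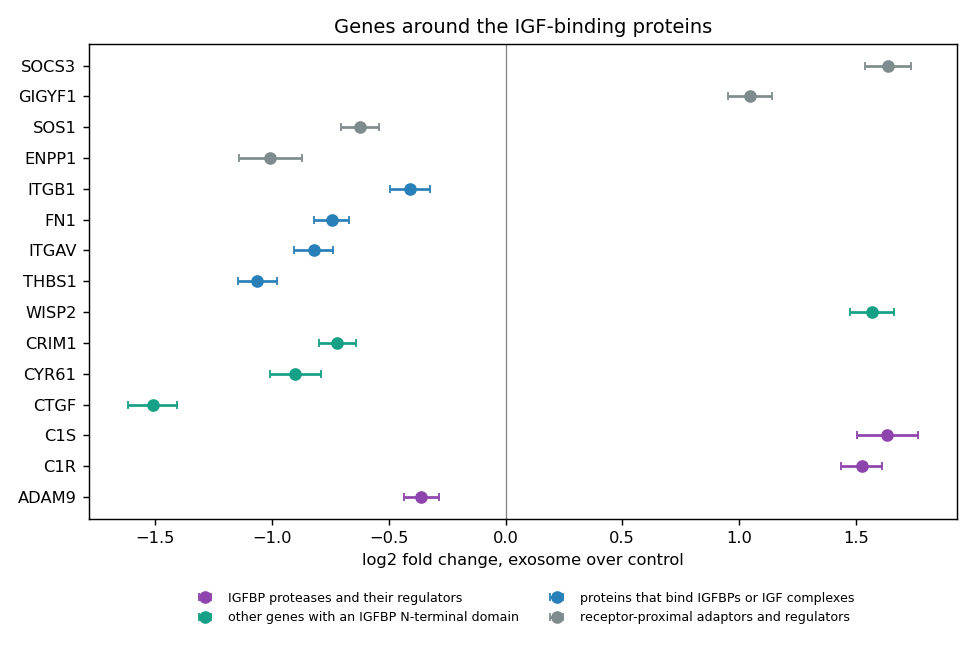
Log2 fold change (exosome over control, ± 1 SE, uncorrected) of genes with the smallest adjusted p from each of 4 lists (3 or 4 genes a list), coloured by list. C1R, C1S, WISP2, SOCS3 and GIGYF1 lie right of 0, and the others, from CTGF at -1.51 to ADAM9 at -0.36, lie left of it.

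Of 19 tested genes in a list for mannose 6-phosphate sorting, the route that IGF2R serves, 7 rose and 6 fell (corrected, 7 and 5), with a median log2 fold change of 0.16. The list also holds SORT1, sortilin, a sorting receptor that does not depend on mannose 6-phosphate. SORT1 fell to 3.24 ± 0.088 FPKM with exosomes, against 6.09 ± 0.52 FPKM in control (-0.99, edgeR adjusted p = 1.46e-07; corrected -0.79). The adaptor subunit AP1S1 rose (0.70, edgeR adjusted p = 1.44e-05; corrected 0.30). Its sister subunit AP1S2 fell (-0.63, edgeR adjusted p = 1.60e-05; corrected -0.34), and GGA1, a sorting adaptor of the Golgi, rose (0.61, edgeR adjusted p = 1.71e-05; corrected 0.23). Of 21 tested FOXO factors and FOXO target genes, a set of which INSR and IGFBP1 are also known members, 6 rose and 6 fell (corrected, 5 and 5), with a median log2 fold change of -0.007. FOXO1 fell to 1.44 ± 0.13 FPKM with exosomes, against 2.37 ± 0.18 FPKM in control (-0.80, edgeR adjusted p = 0.000139; corrected -0.65), while GADD45A (0.98, edgeR adjusted p = 1.77e-06; corrected 0.73) and BCL6 (0.66, edgeR adjusted p = 6.42e-06; corrected 0.62) rose. SESN3, a sestrin, fell (-0.73, edgeR adjusted p = 3.61e-06; corrected -0.24). Of the proteins that bind IGF2 mRNA, which are no relatives of the IGF-binding proteins, IGF2BP3 fell (-0.34, edgeR adjusted p = 0.000839) but did not pass after correction (-0.077, adjusted p = 0.311), and IGF2BP2 did not pass (0.081, edgeR adjusted p = 0.441).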

How the data were processed

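Reads of 6 libraries (Trizol RNA, NEBNext Ultra kit, per the labels' protocols) were processed with STAR and GRCh38, per the submitters' processing notes; how reads were assigned to genes, and whether by strand, is not stated in the sources at hand. The deposited table holds whole read counts, a signal (the counts divided by 1 size factor per library, as the values show) and FPKM, which equal the count over the library total and a fixed length per gene; per the file headers it also holds the authors' log2 fold changes and p-values, which were not used. Groups and replicate numbers came from sample titles. Members and lists were chosen with earlier results of these data known.

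The test was edgeR's robust quasi-likelihood fit (version 4.0.16, R 4.3.3) on the counts, with TMM factors, filterByExpr and group as the only term, with Benjamini-Hochberg adjustment over 12449 genes and a threshold of 0.05. The SE printed with a log2 fold change is the size of that fold change divided by the square root of the test's F statistic. For the corrected fit, each library's log2 CPM minus the gene mean was smoothed on GC content and log2 length of the longest GENCODE 29 transcript (loess, span 0.3) and entered as an offset; FPKM were divided by the same trend. Deposited positions are 1 below those of GENCODE 29 (15490 genes matched), so 1 was added. Promoter windows are from RefSeq (GRCh38.p14), with 8 of the 10 members matched; motifs were chosen after the windows had been read. The text names all members, genes with the smallest adjusted p of each list (up to 4), the nearest patterns of 2 members, and, chosen after their values were seen, IRS1, IRS2, GRB10, CTSD, HTRA1, PAPPA, STC1, STC2, NOV, VTN, TMEM219, IGF2BP2, the keratins, the ligands and the fibroblast markers COL5A1, PDGFRA, THY1, COL3A1 and FAP; 1 gene that the rule takes is not reported here, though it stays in the counts. The scripts were tested on simulated data. Alternatives were RLE factors, library totals, no filter, limma-voom (limma 3.58.1), DESeq2 1.42.0, a filter of 1 CPM in 3 libraries, a threshold of 0.01, a replicate block, the correction, and leaving out each library.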

Additional observations from a re-analysis of the deposited data

How the results depend on the processing

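Over 15 alternative fits, the log2 fold change lay between 0.21 and 0.50 for IGFBP2, 0.48 and 0.68 for IGFBP3, -2.14 and -1.93 for IGFBP5, and 0.76 and 1.48 for IGFBP6, given as a description since the members were chosen on this contrast. The count of lower members was 3 in the fit reported, 2 with RLE factors, no filter, DESeq2 and limma-voom (INSR lost), 1 with library totals only and at a threshold of 0.01, and 1 to 3 with a library left out. With library totals only, 60.4% of all calls were higher, against 49.6% with TMM (3811 higher and 2495 lower). The GC and length correction left 2148 genes lower (3244 without it) and 2263 higher (3190 without it). It turned IGFBP4 (-0.46, also with a replicate block), IGF2R (0.067, also with the block), COL6A2 (-0.081, with the block -0.081) and COL6A1 (-0.17, with the block -0.17), and, among genes named after their values were seen, CTSD (-0.052, with the block -0.049), STC1 (0.0022, with the block 0.0030) and TMEM219 (-0.32, with the block -0.32). PAPPA passed only with the correction and the block together (0.52, edgeR adjusted p = 0.030). Without a library, IGFBP4 lay between -0.074 and 0.083, IGF1R between -0.032 and 0.059, and TMEM219 between -0.014 and 0.11. By CPM per kb of the longest transcript, the IGFBP6 share was 63.4% with exosomes and 45.5% in control, and its control level was 75.2. That length, which the correction also uses, is 4414 bases for IGFBP2, against 1568 bases implied by the FPKM. With the correction of levels, added after seeing the data, IGFBP6 took 52.4% with exosomes and 40.4% in control, at 145 and 81.2 FPKM. Same-numbered libraries deviated together with correlations of 0.066, 0.103 and 0.206, and differently numbered ones with -0.141 to 0.066. These values do not settle whether the numbers mark pairs, and the fit reported did not take them as pairs. A replicate block gave 3444 higher and 3525 lower genes and changed no call of a member. IGFBP5 rests on the fewest reads of the tested members, and IGFBP1 and IGFBP7 are too low to compare.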
